A study of Mus musculus with 12 samples.

Results

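The genes described here are the replication-dependent and other bulk histone genes of the mouse histone clusters. They were taken by symbol alone, as every gene whose name begins with Hist1h, Hist2h, Hist3h or Hist4h, which gave 68 of the 22911 genes listed in both deposited tables. By type they comprise 6 genes of the linker histone H1, 18 of H2A, 19 of H2B, 12 of H3 and 13 of H4. By position 54 belong to the Hist1 cluster on chromosome 13, 10 to Hist2 on chromosome 3, 3 to Hist3 on chromosome 11 and 1, *Hist4h4*, stands alone on chromosome 6.

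RNA-Seq was performed on mouse epiblast-like cells (EpiLCs), a model of the early post-implantation epiblast, after 48 h of differentiation of embryonic stem cells (ESCs) in FGF2 at 10 ng/ml and Activin A at 20 ng/ml. The 4 groups, each with 3 libraries, were female *Kdm5c* fl/fl (fWT), female *Kdm5c* Δ/Δ (fKO), male *Kdm5c* flY (mWT) and male *Kdm5c* ΔY (mKO). *Kdm5c*, also named *Smcx*, encodes an X-linked H3K4 demethylase, and its Δ allele lacks the exons for the demethylase domain. According to the methods, each genotype was represented by 3 ESC lines, and the labels, which give the strain as C57BL/6J, call both floxed control groups wild type. The tables list group means of normalized counts, that is, reads divided by the size factor of the library, from which the whole reads in each library were solved for all 68 histone genes. Within a group the libraries are called A, B and C in the order of their size factors, from high to low, and which ESC line each came from is not known.

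Core histones H2A, H2B, H3 and H4 form the nucleosome, and H1 binds the linker DNA between nucleosomes. Cells make most of this protein during S phase from clusters of small intronless genes, whose mRNAs end in a conserved stem-loop in place of a poly(A) tail. The stem-loop binding protein SLBP and the U7 small nuclear ribonucleoprotein direct the cleavage that forms this end. RNA was depleted of ribosomal RNA and not selected for poly(A), so that transcripts without a tail were counted as well.

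The stem-loop is shown because it sets these genes apart from nearly all others. The 16-base motif, read as GG, any 2 bases, CTT, any base, T, any base, AG, any 2 bases and CC, was searched on the coding strand, within 150 bases after the annotated stop codon, on mm9. It was found in 63 of the 66 histone genes with an annotated stop codon (95.5%) and in 8 of 21771 other coding genes (0.0367%). The histone genes with no match were *Hist1h2an*, *Hist2h2be* and *Hist2h2bb*, while *Hist3h2bb-ps* and *Hist2h3c2* had no annotated stop codon. There were 8 distinct stem-loops, and none was shared between H4 and the other types. The most frequent, in 39 genes of H1, H2A, H2B and H3, and the most frequent of H4, in 8 genes, are the first and the third below, with the 16 bases of the motif in capitals and 7 flanking bases on either side.
*Hist1h1c*, chr13:23831374-23831403, + strand: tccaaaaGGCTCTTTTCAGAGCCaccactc
*Hist1h2bm*, chr13:21814368-21814397, + strand: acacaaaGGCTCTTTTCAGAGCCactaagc
*Hist1h4k*, chr13:21842012-21842041, − strand: tacaaaaGGCCCTTTTCAGGGCCacccact
*Hist1h4i*, chr13:22132828-22132857, − strand: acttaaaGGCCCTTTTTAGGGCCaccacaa
*Hist2h4*, chr3:96066855-96066884, − strand: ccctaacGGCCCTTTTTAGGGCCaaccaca
*Hist4h4*, chr6:136752512-136752541, − strand: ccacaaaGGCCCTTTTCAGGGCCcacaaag
In these lines *Hist1h4i*, whose level was lower in fKO, and *Hist2h4*, whose level was higher, carry the same 16 bases, as do *Hist1h4k* and *Hist4h4*.

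Promoters, from 250 bases before to 50 after the start, were matched in RefSeq (GRCm38.p6) for 61 of the 68 genes. CCAAT, the motif bound by NF-Y, was searched on both strands, as were TATAAA and the octamer ATTTGCAT, the motif of OCT factors. CCAAT was found in all 6 matched H1, 17 H2A, 16 H2B and 10 H3 promoters, in 3 of 12 H4 promoters and in 37.9% of 27025 RefSeq promoters. The octamer was found in 7 H2A and 6 H2B promoters, in none of the H1, H3 or H4 promoters, and in 1.75% of all promoters. TATAAA was found in 4 of 6 H1, 11 of 17 H2A, 8 of 16 H2B, 4 of 10 H3 and 8 of 12 H4 promoters, against 14.2% of all promoters. Windows of neighbouring H2A and H2B genes on opposite strands can overlap, as those of *Hist1h2ah* and *Hist1h2bk* do. The same site can then count for both genes, so the H2A and H2B counts are not independent. The promoters of a pair of H4 genes that changed in opposite directions in females are shown, with TATAAA in capitals.
*Hist1h4k* (RefSeq H4c12), chr13:21750504-21750803, − strand: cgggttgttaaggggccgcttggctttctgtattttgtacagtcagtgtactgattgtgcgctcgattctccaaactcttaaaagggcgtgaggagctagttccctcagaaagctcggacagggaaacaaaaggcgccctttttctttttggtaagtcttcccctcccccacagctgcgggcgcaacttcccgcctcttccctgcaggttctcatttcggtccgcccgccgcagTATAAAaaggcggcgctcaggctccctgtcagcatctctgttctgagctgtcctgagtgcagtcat
*Hist1h4i* (RefSeq H4c9), chr13:22041313-22041612, − strand: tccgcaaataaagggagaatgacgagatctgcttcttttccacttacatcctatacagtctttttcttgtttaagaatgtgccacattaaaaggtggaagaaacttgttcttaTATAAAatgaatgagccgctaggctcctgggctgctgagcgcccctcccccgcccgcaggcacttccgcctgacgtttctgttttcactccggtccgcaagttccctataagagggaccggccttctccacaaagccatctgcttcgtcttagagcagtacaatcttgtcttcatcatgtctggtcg
Both held TATAAA and neither held CCAAT or the octamer, which says only that these letters are not in this window.

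Recovered depth was 5524652 to 11125339 reads per library. *Kdm5c* itself was at 2315 to 2429 normalized counts in fWT, 1406 to 1505 in fKO, 2110 to 2371 in mWT and 1897 to 1976 in mKO, so that mutant and control libraries did not overlap in either sex. Its log2 change was −0.70 in females (adjusted p = 4.54e-09, limma). In males it was −0.20 and did not pass (adjusted p = 0.272, limma). Libraries A and C of mWT held 12163 and 13229 normalized counts on 1494 olfactory, vomeronasal and taste receptor genes, which these cells are not known to use, against 1798 to 3558 in the other 10 libraries. In the sum of 8 EpiLC markers mWT B, with 24990, and mKO A, with 17826, also stood apart from the other libraries of their groups (17015 to 17087 and 12266 to 12363). Sums over 8 fibroblast markers were 2306 to 2362 in fWT, 777 to 833 in fKO, 647 to 881 in mWT and 4288 to 4866 in mKO, and no marker was at 0 in a whole group. Sums over 8 endoderm markers were 431 to 480 in fWT, 3561 to 3712 in fKO, 1769 to 2509 in mWT and 536 to 2401 in mKO. Those over 8 markers of naive ESCs were 3644 to 3811, 4242 to 4426, 3961 to 4850 and 7061 to 9039 in the same order. The part of these differences in the histone results was not tested, and in bulk RNA fewer cells of a type and less RNA per cell cannot be told apart.

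The histone genes made up 2.00% of all normalized counts in fWT, 1.72% in fKO, 1.44% in mWT and 1.72% in mKO. Their summed level was 195050 ± 4819 (SD, n = 3 libraries) in fWT and 171872 ± 11226 in fKO, a change of −11.9%. In males it was 136137 ± 36371 in mWT and 156213 ± 7069 in mKO. The mWT libraries lay far apart, with A and C at 115796 and 114487 and B at 178128. A and C were below every library of the other groups, and B was not. Which of them stands for the group cannot be told from 3 libraries. All 6 genes at 0 reads in every library, *Hist1h2ap*, *Hist1h2bq*, *Hist1h2br*, *Hist2h2aa1*, *Hist2h3c1* and *Hist2h3c2*, were left out of every test, and 62 genes were tested. The first 4 have no exonic stretch of 50 bases that is unique on mm9, and only uniquely mapped reads were kept, so that a count of 0 does not show that they were silent. A further 3 genes with few reads, *Hist1h2ao*, *Hist2h2aa2* and *Hist1h4m*, had mean counts under 10, and 51 genes had mean counts above 1000.

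**Figure D1:**
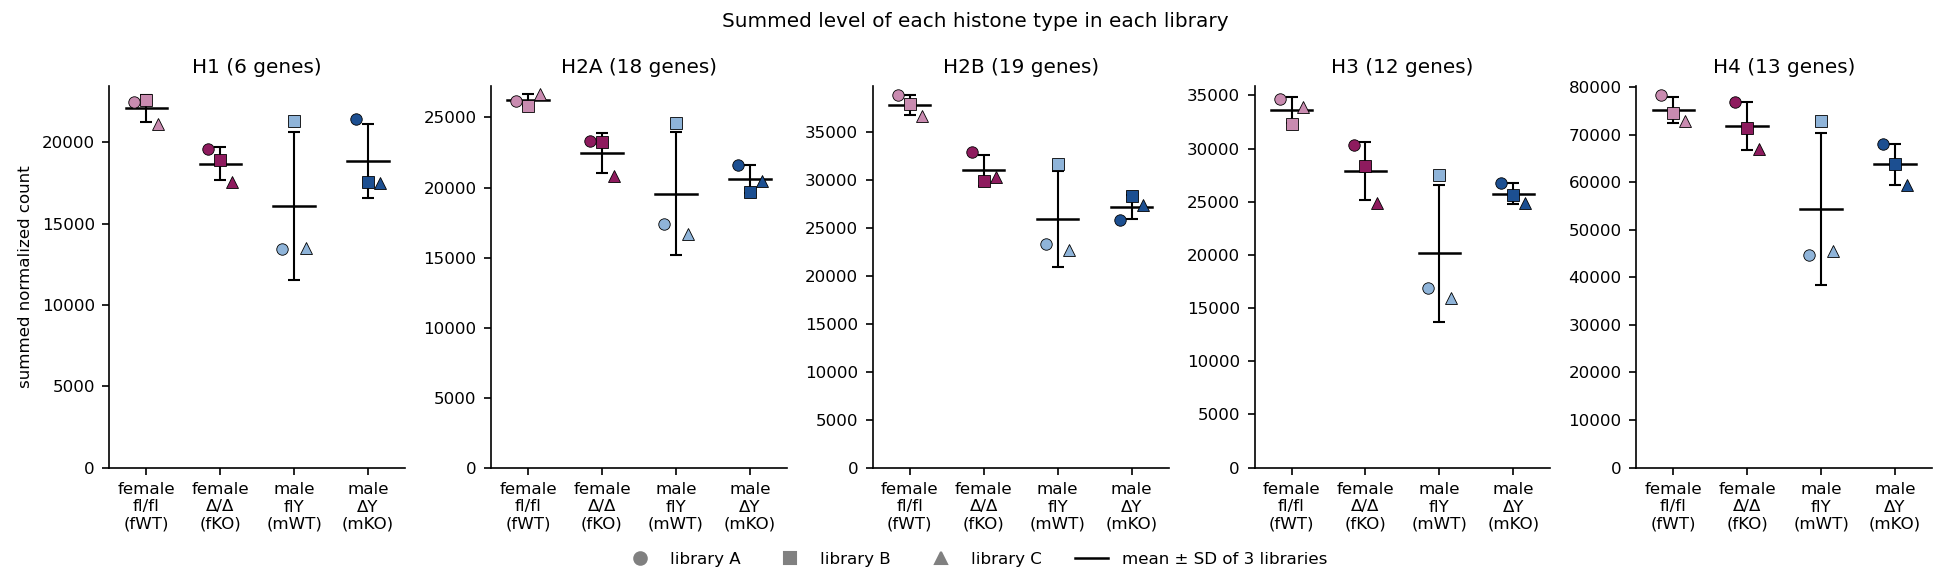
Summed normalized count of the genes of each histone type (vertical axis, from 0) in each library, by group (horizontal axis); symbols are single libraries and black bars the mean and SD of 3 libraries. In fKO the sums of H1, H2A, H2B and H3 lie below all fWT libraries, and in mWT library B lies far above A and C.

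By type, the sums of H1, H2A, H2B and H3 over all their genes were lower in every fKO library than in every fWT library, and that of H4 overlapped between the groups. Over the genes with at least 50% of their exonic 50-base stretches unique on mm9, the sum of H4 was lower in every fKO library as well. Summed H1 was 21136 to 22591 in fWT and 17575 to 19594 in fKO, a change of −15.3% by the means. Summed H2A was 25827 to 26674 in fWT and 20793 to 23309 in fKO, a change of −14.4%. Summed H2B was 36694 to 38856 in fWT and 29869 to 32896 in fKO, a change of −18.0%, and summed H3 was 32326 to 34659 against 24901 to 30295, a change of −17.2%. In each of these 4 types the fKO libraries lay below all fWT libraries. Summed H4 over all 13 genes was 72928 to 78285 in fWT and 67028 to 76979 in fKO, a change of −4.55% with overlapping libraries. Over the 9 H4 genes with at least 50% unique sequence it was 48570 to 52943 in fWT and 41800 to 48208 in fKO, a change of −13.1%, and over the 10 such H2B genes the change was −10.4%, so that the order of H4 and H2B turned. *Hist1h4k* alone, described below, went from 12.1% ± 1.07 (SD, n = 3) to 16.9% ± 0.632 of all H4 counts, and without it the other 12 H4 genes summed to 66161 in fWT and 59706 in fKO. Counts of types cannot be compared with each other as levels of RNA, because the gene models and their share of unique sequence differ.

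In females, the loss of *Kdm5c* went with a lower level of most histone genes. In limma over 19575 genes, 35 of the 62 tested histone genes were lower in fKO and 5 were higher at an adjusted p under 0.05 (Benjamini-Hochberg). Over all genes tested, 24.7% were lower and 25.4% higher, so that the share of histone genes called lower, 56.5%, was above the background and the share called higher, 8.06%, below it. Among the 2304 genes at 1000 or above by the mean, the range of most histone genes, 26.1% were lower. The median log2 change was −0.23 over the histone genes and 0.00 over all genes tested. Among the 37 histone genes with at least 50% of their exonic 50-base stretches unique on mm9, 19 were lower and 3 higher. With any 1 of the 6 libraries left out, 31 to 37 histone genes were lower.

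**Figure D2:**
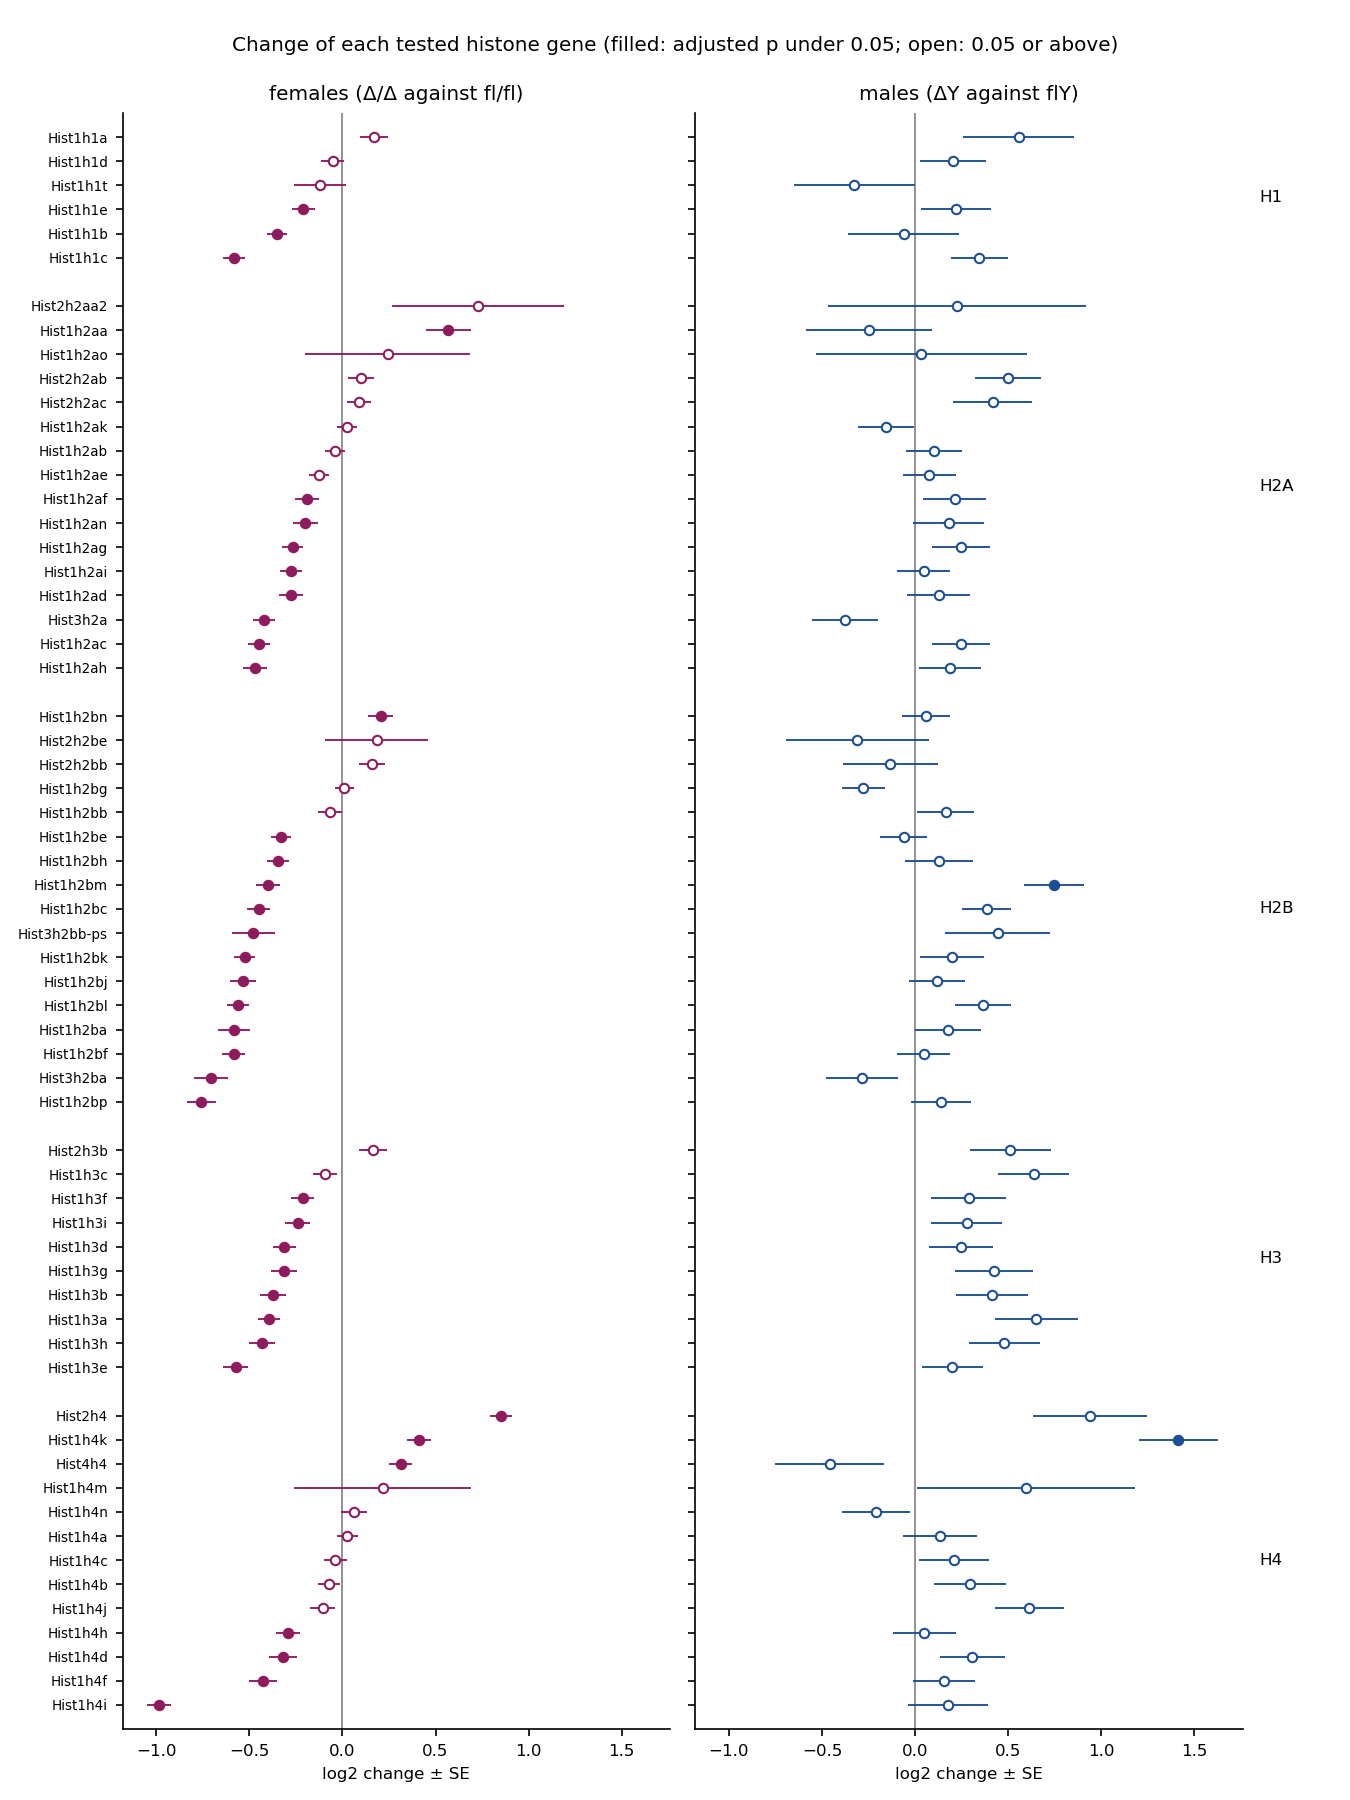
Log2 change (horizontal axis, with its standard error) of each of the 62 tested histone genes, grouped by type, in females (left, fKO against fWT) and males (right, mKO against mWT); filled points have an adjusted p under 0.05. In females 35 filled points lie left of 0 and 5 right of it, and in males the filled points are *Hist1h4k* and *Hist1h2bm*.

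Of the linker histone genes 3 of 6 were lower in females and 0 higher, against 24.7% and 25.4% of all genes tested. *Hist1h1c* (H1.2), the H1 gene with the highest count in fWT, was at 7489, 7416 and 7200 normalized counts in fWT and 5090, 5185 and 4499 in fKO. No library overlapped, and the log2 change was −0.58 (SE 0.059, adjusted p = 1.82e-07, limma). *Hist1h1d* (H1.3) was at 6227, 6167 and 5574 in fWT and 6040, 5966 and 5316 in fKO, and these groups overlapped (log2 change −0.05, adjusted p = 0.524). *Hist1h1b* and *Hist1h1e*, which encode H1.5 and H1.4, fell by 0.35 and 0.21 on the log2 scale, and *Hist1h1a* (H1.1) had a log2 change of 0.17 that did not pass. The share of *Hist1h1c* in all H1 counts went from 33.4% ± 0.625 (SD, n = 3) in fWT to 26.3% ± 0.974 in fKO. The testis gene *Hist1h1t* was at 94.6 to 136 in fWT and 94.8 to 113 in fKO.

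Of the H2A genes 8 of 16 tested were lower, and of the H2B genes 12 of 17, with 1 of each type higher. Over all genes tested 24.7% were lower and 25.4% higher. *Hist1h2ah* and *Hist1h2ai* had the highest mean H2A counts over all libraries. *Hist1h2ah* was at 3182, 3142 and 3460 in fWT and 2458, 2493 and 2131 in fKO, a log2 change of −0.47 (SE 0.064, adjusted p = 6.94e-06). *Hist1h2ai* was at 2865, 2770 and 2834 in fWT and 2421, 2428 and 2149 in fKO, a log2 change of −0.28 (SE 0.058, adjusted p = 0.000549). Neither gene had overlapping libraries. Of the H2B genes, *Hist1h2bk* was at 4831, 4764 and 5092 in fWT and 3639, 3389 and 3185 in fKO, with a log2 change of −0.53 (SE 0.058, adjusted p = 5.2e-07). *Hist2h2bb* had the highest H2B count, at 4811, 5456 and 4434 in fWT and 5508, 5145 and 5709 in fKO, and its libraries overlapped (log2 change 0.16, adjusted p = 0.0634). Of these 2 H2B genes *Hist1h2bk* passed the test.

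The 5 histone genes with the largest falls in females were *Hist1h4i*, *Hist1h2bp*, *Hist3h2ba*, *Hist1h2bf* and *Hist1h1c*, the last almost level with *Hist1h2ba*. *Hist1h4i* fell most, from 7302, 6689 and 6444 normalized counts in fWT to 3701, 3410 and 3217 in fKO. The level in fKO was 0.505 times that in fWT, with a log2 change of −0.98 (SE 0.063, adjusted p = 3.97e-10). *Hist1h2bp* was at 1866, 1785 and 1749 in fWT and 1242, 1016 and 955 in fKO, a log2 change of −0.76 (SE 0.077, adjusted p = 1.75e-07). *Hist3h2ba*, a gene of the Hist3 cluster, was at 866, 823 and 695 in fWT and 556, 428 and 478 in fKO, a log2 change of −0.71 (SE 0.091, adjusted p = 3.5e-06). For *Hist1h2bf* the values were 1862, 1650 and 1720 in fWT and 1212, 1178 and 1098 in fKO, a log2 change of −0.58 (SE 0.061, adjusted p = 2.43e-07). In each of the 5 genes the highest fKO library was below the lowest fWT library.

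Of the 10 tested H3 genes 8 were lower in fKO and none was higher, against 24.7% and 25.4% of all genes tested. *Hist1h3e*, with the highest mean H3 count over all libraries, was at 4593, 4180 and 4496 in fWT and 3249, 3017 and 2675 in fKO, a log2 change of −0.57 (SE 0.066, adjusted p = 9.12e-07) without overlap. The next by mean count, *Hist2h3b*, was at 3966, 3217 and 3652 in fWT and 4408, 4064 and 3665 in fKO, with overlapping libraries (log2 change 0.16, adjusted p = 0.0772). The other H3 gene that did not pass was *Hist1h3c*, at −0.09.

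Of the 13 H4 genes 4 were lower (30.8%) and 3 higher (23.1%), near the shares of all genes tested. *Hist2h4* rose most of all histone genes in females, from 1568, 1444 and 1415 normalized counts in fWT to 2811, 2611 and 2568 in fKO. The level in fKO was 1.8 times that in fWT, with a log2 change of 0.85 (SE 0.058, adjusted p = 1.04e-09). *Hist1h4k* rose from 8903, 8691 and 9739 to 12715, 12608 and 11093 (log2 change 0.41, SE 0.064, adjusted p = 2.82e-05), and *Hist4h4* from 2636, 2354 and 2289 to 3135, 3031 and 2861 (log2 change 0.31, SE 0.061, adjusted p = 0.000308). In each of these 3 H4 genes all fKO libraries were above all fWT libraries. The H4 gene with the highest count, *Hist1h4n*, was at 13087, 10688 and 11596 in fWT and 12839, 12533 and 11483 in fKO, and did not differ beyond the spread of its libraries (log2 change 0.06, adjusted p = 0.499). *Hist1h4h*, *Hist1h4d* and *Hist1h4f* fell by 0.29, 0.32 and 0.43 on the log2 scale. H4 coding sequences are nearly alike, and counts of *Hist1h4n* and *Hist1h4k* are uncertain as counts of single genes, because 7.09% and 28.5% of their exonic 50-base stretches are unique on mm9. For *Hist2h4*, *Hist4h4* and *Hist1h4i* these shares are 99.0%, 100% and 59.8%.

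**Figure D3:**
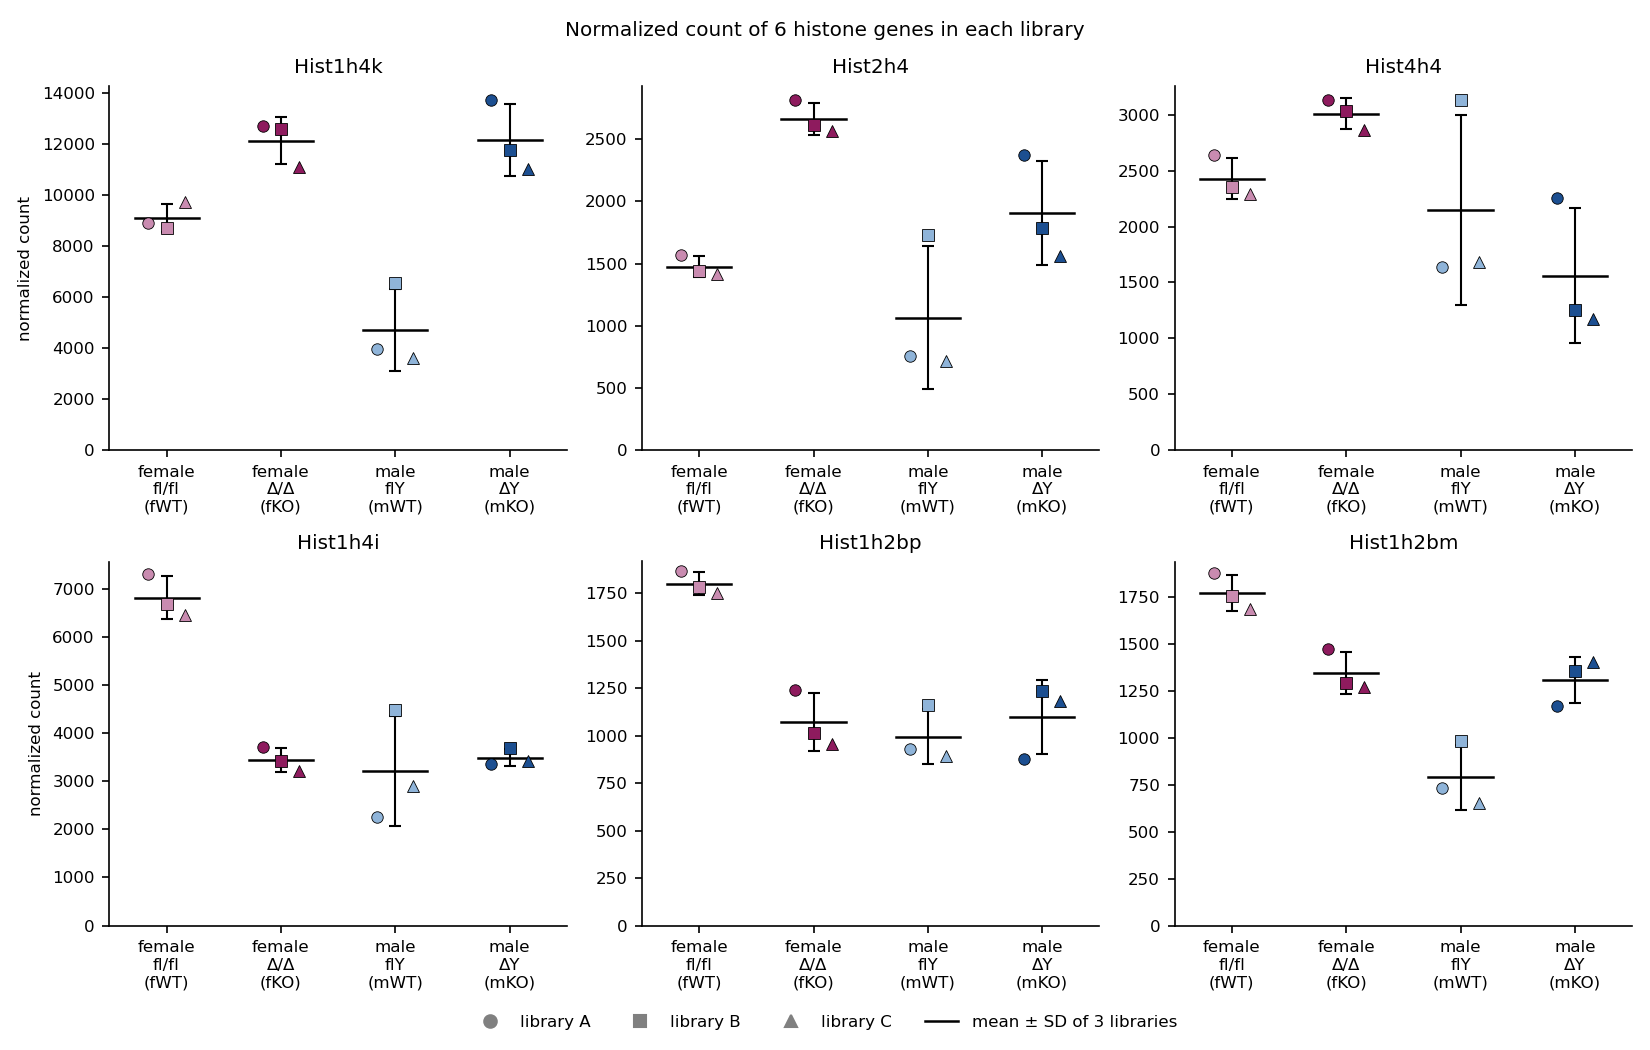
Normalized count (vertical axes, from 0) of 6 histone genes in each library, by group (horizontal axis); symbols are single libraries and black bars the mean and SD of 3 libraries. *Hist1h4k* lies higher in both mutants than in their controls, *Hist1h4i* falls from at least 6444 in fWT to at most 3701 in fKO, and mWT B lies above mWT A and C in all 6 genes.

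Besides these H4 genes, *Hist1h2aa* and *Hist1h2bn* were called higher in females. *Hist1h2aa*, known as a testis gene, was at 128, 109 and 105 in fWT and 195, 152 and 162 in fKO (log2 change 0.57, SE 0.121, adjusted p = 0.000694). *Hist1h2bn* was at 1903, 2059 and 1953 in fWT and 2406, 2022 and 2406 in fKO, and here the groups overlapped, since fKO B was below fWT B (log2 change 0.20, SE 0.066, adjusted p = 0.0156). Without 1 library, the adjusted p of *Hist1h2bn* reached up to 0.107. *Hist1h2ba*, which encodes the testis H2B and lies beside *Hist1h2aa*, was at 623 to 717 in fWT and 409 to 531 in fKO and fell by 0.58 on the log2 scale.

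Histone genes known to give polyadenylated transcripts as well, a list of 7, went with the majority. Of these 5 were lower in fKO, namely *Hist1h1c*, *Hist1h2bc*, *Hist3h2a*, *Hist3h2ba* and *Hist1h4i*, and *Hist4h4* was higher. Among all genes tested 24.7% were lower and 25.4% higher. *Hist1h2bc* was at 2984, 2655 and 2708 in fWT and 2155, 2091 and 1864 in fKO, a log2 change of −0.45 (adjusted p = 9.94e-06). *Hist3h2a* was at 2335, 2488 and 2491 in fWT and 1900, 1891 and 1679 in fKO, a log2 change of −0.42. *Hist2h2be*, at 18.9 to 31.8 in fWT and 23.2 to 31.3 in fKO, had few reads and did not pass. Transcripts with and without a tail cannot be told apart in these libraries.

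By position, the sums of the Hist1 and the Hist2 cluster changed with opposite signs in females, and the difference between the clusters was not tested. The Hist1 genes summed to 174655 to 182566 in fWT and 142014 to 162868 in fKO, a change of −14.1% by the means, and 32 of 51 tested were lower and 3 higher. The Hist2 genes summed to 11102 to 11950 in fWT and 13485 to 14512 in fKO, a change of 19.7%, with no overlap in either cluster. Of the 7 tested Hist2 genes 1, *Hist2h4*, was called higher and none lower, while 3 had an unadjusted p under 0.05. Without *Hist2h4* the Hist2 genes summed to 9686 to 10382 in fWT and 10906 to 11701 in fKO, a change of 10.9%, and with counts scaled by total reads these libraries overlapped. The 3 Hist3 genes, *Hist3h2a*, *Hist3h2ba* and the pseudogene *Hist3h2bb-ps*, were all lower. Of all 62 tested histone genes 56.5% were lower and 8.06% higher, and of all genes tested 24.7% and 25.4%. Within Hist1, split where neighbouring genes lie over 100000 bases apart, there were 4 stretches on mm9. The second, chr13:22126982-22135545, holds *Hist1h2ah*, *Hist1h2bk*, *Hist1h4i*, *Hist1h2ag* and *Hist1h2bj*, and all 5 were lower, with a median log2 change of −0.53 and a change of the sum of −34.8%. In the first, 8 of 15 tested genes were lower (53.3%) and 2, *Hist1h4k* and *Hist1h2bn*, higher. In the third, 18 of 29 were lower (62.1%) and 0 higher. Both shares called lower were near that of all tested histone genes. The last holds *Hist1h2ba* and *Hist1h2aa*, which moved in opposite directions. These stretches were examined after the values of the genes were known.

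**Figure D4:**
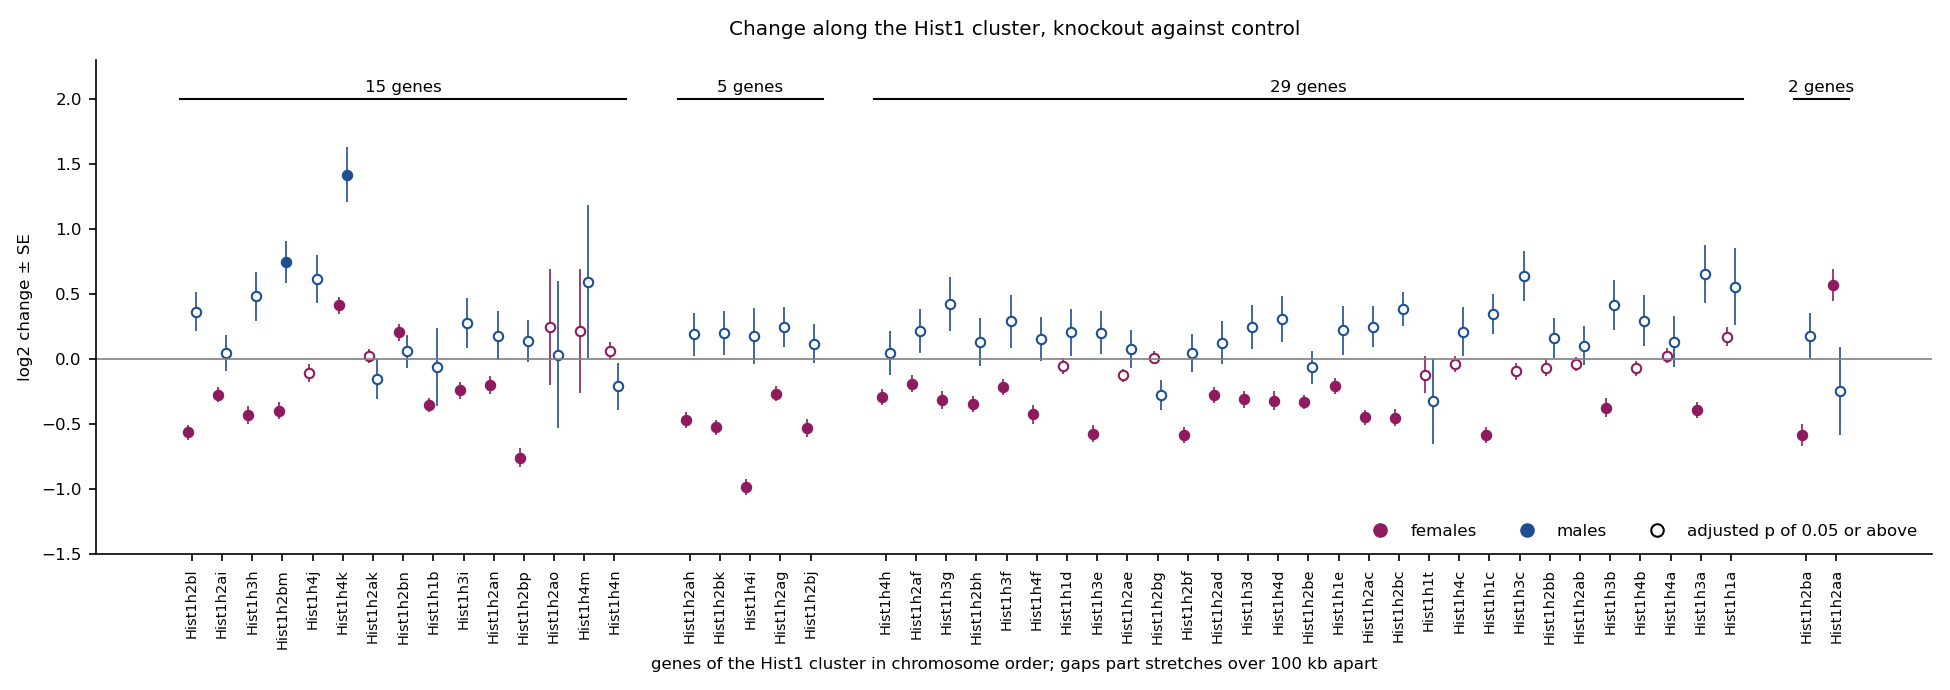
Log2 change (vertical axis, with its standard error) of the 51 tested genes of the Hist1 cluster in chromosome order (horizontal axis) in females and males; filled points have an adjusted p under 0.05 and gaps part stretches over 100 kb apart. All 5 genes of the second stretch are filled and below 0 in females, while most male points are open and above 0.

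Genes that act on histone mRNA or histone protein were called in both directions in females. Of 22 genes for histone mRNA transcription, processing and decay, 4 were higher in fKO and 4 lower, shares below those of all genes tested. *Casp8ap2* (FLASH), a processing factor at histone genes, was at 1003 ± 49.5 (SD, n = 3) in fWT and 1478 ± 127 in fKO, *Srrt* (ARS2), a partner of the cap-binding complex, at 1976 ± 90.3 and 3039 ± 174, and *Tut1*, the uridylyltransferase of U6 RNA, at 330 ± 10.6 and 600.2 ± 21.8. *Ncbp1* rose by 0.19 on the log2 scale, and *Lsm11*, a subunit of the U7 particle, *Zfp473*, *Sympk* and *Zcchc11* fell by 0.49, 0.35, 0.20 and 0.24. *Slbp* was at 1876 to 1936 in fWT and 1861 to 1910 in fKO, and *Npat*, the coactivator of histone genes, had a log2 change of 0.03. Neither passed the test.

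Of 21 genes for histone supply and chaperones 8 were higher in fKO and 4 lower, against 25.4% and 24.7% of all genes tested. Among the higher were *Asf1a* and *Asf1b*, which hand H3 and H4 to the assembly factors, with log2 changes of 0.46 and 0.74, *Hat1*, which acetylates new H4, at 0.42, and *Daxx*, a chaperone of H3.3, at 0.54. *Hira*, *Atrx*, *Nap1l4* and *Ipo4* rose by 0.31, 0.24, 0.17 and 0.23. *Hjurp*, the chaperone of the centromeric histone CENP-A, fell most, from 297 ± 13.4 in fWT to 77.5 ± 6.71 in fKO, and *Cenpa* itself fell by 0.47 on the log2 scale. *Npm3*, *Rbbp7* and *Ubn1* fell by 0.58, 0.29 and 0.22. The chaperones with the highest counts, *Nasp* and *Supt16*, had log2 changes of −0.14 and −0.07 that did not pass.

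Of 12 tested replacement histone genes, whose expression is not limited to S phase, 5 were lower and 1 higher. Among all genes tested 24.7% were lower and 25.4% higher. *H1fx*, *H2afj*, *Cenpa*, *H3f3a* and *H2afy* fell by 1.01, 0.67, 0.47, 0.19 and 0.17 on the log2 scale, and *H1f0*, the replacement linker histone, rose by 0.26. The members with the highest counts, *H2afz* and *H2afx*, had log2 changes of 0.00 and −0.05. Of 30 S phase genes 12 were higher and 4 lower, against 25.4% and 24.7% of all genes tested. The summed level of these 30 genes was 58212 to 59867 in fWT and 61323 to 61607 in fKO. *Ccne2* (0.81), *Rpa2* (0.78), *Gins1* (0.51), *Fen1* (0.49), *Ccne1* (0.46), *Cdc6* (0.45) and *Prim1* (0.41) had the largest log2 changes upwards, ahead of *Cdc45*, *Tyms*, *Rpa1*, *Mcm2* and *Mcm4*. Lower were *Dut*, *Rrm1*, *E2f1* and *Lig1*, by 0.20 to 0.29. *Pcna* and *Mcm7*, with the highest counts of the list beside *Mcm2*, did not pass. With counts scaled by total reads in place of the size factors, the summed S phase list was 57921 to 59167 in fWT and 57863 to 58671 in fKO, so that the libraries overlapped and the mean was not higher, while the sums of H1, H2A, H2B and H3 stayed lower in every fKO library under both scalings.

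In males, 2 of the 62 tested histone genes were called higher in mKO and 0 lower, by limma over 21875 genes. Over all genes tested, 4.2% were higher and 3.58% lower, and 12 histone genes, 11 higher and 1 lower, had an unadjusted p under 0.05, while limma voom called 2 higher and 0 lower. The median log2 change was 0.20 over the histone genes and −0.16 over all genes tested, or 0.00 over genes whose mean was 10 or above. The count and the median changed with the libraries used. Without mWT B, 29 histone genes were called higher, against 6.58% of all genes in that fit. Without mKO A 5 were higher and 2 lower, against 9.76% and 9.99% of all genes. With mWT B and mKO A both left out, 47 were higher and 4 lower, against 17.7% and 25.3%. With mWT A and C both left out, the median log2 change of the histone genes turned to −0.19. In that fit mWT is a single library, assumed to vary like mKO, and 0 of 19041 genes passed, so that its 0 histone calls say nothing of these genes. Leaving out any other single male library gave 1 call.

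**Figure D5:**
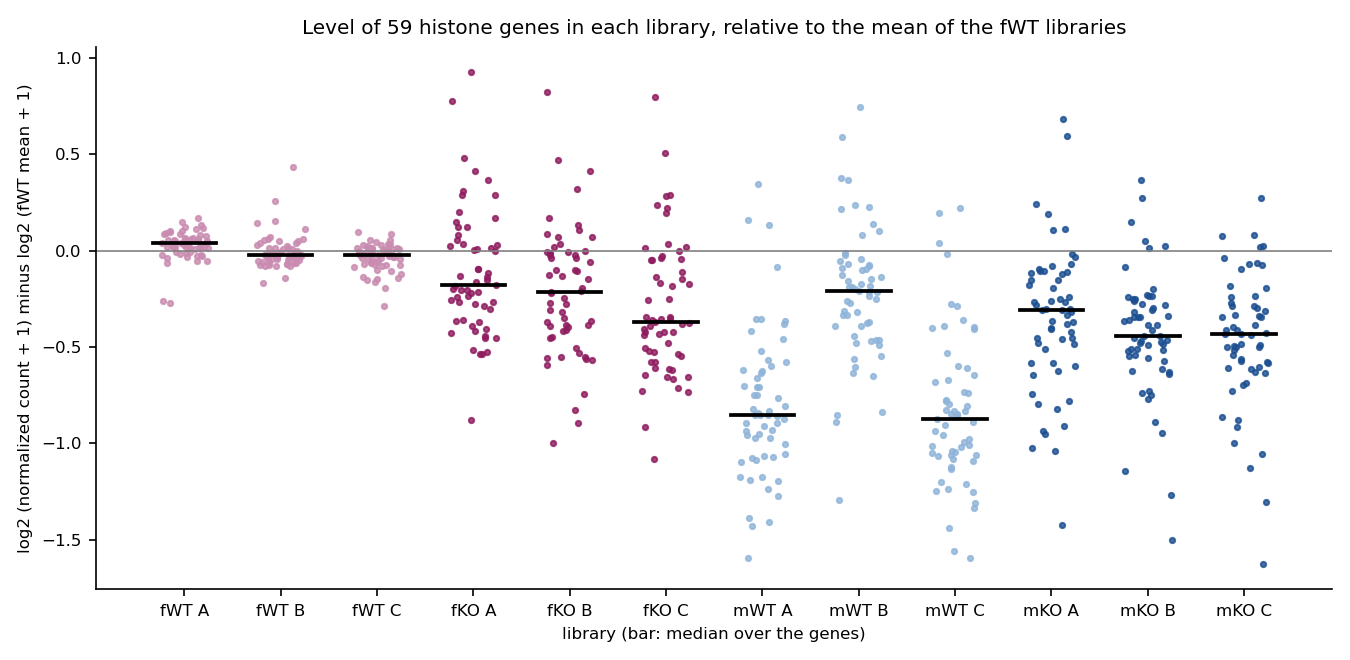
Log2 level of each of the 59 histone genes whose mean was 10 or above, in each library (horizontal axis), relative to the mean of the 3 fWT libraries (vertical axis, 1 added to each count); points are genes and black bars medians. The medians of mWT A and C, at −0.85 and −0.87, lie below those of all other libraries, and that of mWT B, at −0.21, lies near the fKO libraries.

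By type, the male sums changed by 17.2% (H1), 5.29% (H2A), 4.95% (H2B), 27.8% (H3) and 17.2% (H4) by the means, with the mWT libraries spread far apart. Summed H4 was at 44747, 72920 and 45621 in mWT and 68137, 63771 and 59538 in mKO, and summed H3 at 16920, 27561 and 15983 in mWT and 26756, 25671 and 24845 in mKO. For H2A, H2B, H3 and H4 mWT B was above all mKO libraries, and mWT A and C were below them all. The Hist2 genes summed to 6064, 11633 and 6118 in mWT and 11126, 8823 and 8414 in mKO, and the Hist3 genes to 2375, 2884 and 2281 in mWT and 2527, 1845 and 1676 in mKO.

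Library by library, the histone genes of mWT fell into distinct levels. Relative to the fWT mean, the median over 59 histone genes was 0.555 times in mWT A, 0.547 in mWT C and 0.866 in mWT B. In mKO it was 0.808, 0.737 and 0.741 times, and in fKO 0.882, 0.863 and 0.775. In 57 of the 59 genes mWT B was above both A and C. All 3 mKO libraries were above mWT A and C in 44 genes, but above all 3 mWT libraries in 7 genes. These orders were not counted over all genes, so they cannot be called particular to histone genes. The S phase list had the same order, with 42922 and 43829 normalized counts in mWT A and C, 55163 in B and 50086 to 50405 in mKO, and *Slbp* was at 1085, 1571 and 1151 in mWT. The libraries mWT A and C are also those with the high receptor gene counts given above, and whether the differences share a source was not tested.

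*Hist1h4k* was the histone gene with the largest change in males. It was at 3976, 6540 and 3614 normalized counts in mWT and 13745, 11755 and 11020 in mKO, 2.58 times the control level by the means. The groups did not overlap even with mWT B, and the log2 change was 1.41 (SE 0.211, adjusted p = 0.0052, limma). With 1 library left out, the adjusted p stayed between 0.00254 and 0.0483. Against mWT B alone the log2 change was 0.89, in the fit in which no gene passed. Within the H4 counts of the same library, a measure that does not depend on the overall histone level, *Hist1h4k* made up 7.92% to 8.97% in mWT and 18.4% to 20.2% in mKO. In females this share was 11.4% to 13.4% in fWT and 16.5% to 17.6% in fKO, so that the mutants exceeded the controls in both sexes. *Hist1h4n* went from 26.6% to 28.9% of H4 counts in mWT to 18.7% to 20.5% in mKO, with 12914, 19771 and 12124 normalized counts in mWT and 12747, 13096 and 11949 in mKO.

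*Hist1h2bm*, an H2B gene, was the other histone gene called in both sexes, in opposite directions. In males it was at 733, 982 and 654 in mWT and 1170, 1357 and 1402 in mKO, without overlap (log2 change 0.75, SE 0.16, adjusted p = 0.024). In females it was at 1876, 1753 and 1684 in fWT and 1473, 1293 and 1271 in fKO, also without overlap (log2 change −0.40, SE 0.064, adjusted p = 4.47e-05). With 1 male library left out, its adjusted p in males ranged from 0.0058 to 0.126. On mm9 its exons overlap *Hist1h2aj*, a gene of the other strand.

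Other genes named for females did not pass in males. *Hist2h4* was at 753, 1726 and 716 in mWT and 2371, 1784 and 1558 in mKO, so that mWT B overlapped the mKO libraries (log2 change 0.94, SE 0.306, adjusted p = 0.0948). Without mWT B its adjusted p was 0.0126. *Hist4h4* was at 1638, 3129 and 1679 in mWT and 2258, 1257 and 1169 in mKO, with a log2 change of −0.46 (adjusted p = 0.35). *Hist1h4i* was at 2255, 4481 and 2890 in mWT and 3352, 3684 and 3412 in mKO, *Hist1h2bp* at 929, 1160 and 892 against 875, 1238 and 1182, and *Hist1h2bf* at 1123, 1347 and 997 against 1040, 1282 and 1244. For *Hist4h4*, *Hist1h4i* and *Hist1h2bf* mWT B was the highest library of both groups. *Hist3h2ba* was at 409, 429 and 392 in mWT and 449, 329 and 257 in mKO. *Hist1h2aa* was at 42.9, 89.9 and 51.7 in mWT and 65.7, 39.5 and 45.5 in mKO, and *Hist1h2bn* at 1435, 1863 and 1502 against 1579, 1655 and 1734.

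The genes with the highest mean counts in the other types also overlapped between the male groups. *Hist1h1c* was at 4171, 6105 and 4286 in mWT and 5984, 5992 and 6247 in mKO, and *Hist1h1d* at 4601, 6954 and 4665 against 7086, 5642 and 5704. *Hist1h2ah* was at 1999, 2984 and 1906 in mWT and 2468, 2567 and 2654 in mKO, and *Hist1h2ai* at 1832, 2487 and 1804 against 2186, 1977 and 2090. *Hist1h2bk* was at 3228, 4394 and 2718 in mWT and 3512, 4149 and 4006 in mKO, and *Hist2h2bb* at 2632, 5399 and 2946 against 3976, 2963 and 2689. For H3, *Hist1h3e* was at 2379, 3374 and 2118 in mWT and 2948, 3024 and 2891 in mKO, and *Hist2h3b* at 1801, 3113 and 1647 against 3344, 2816 and 2845. In each of these genes mWT B was above mWT A and C, and the log2 changes ran from −0.13 for *Hist2h2bb* to 0.51 for *Hist2h3b*.

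Of the other lists, 0 of 22 mRNA processing genes, 0 of 21 supply and chaperone genes and 0 of 30 S phase genes were called in males. Among all genes tested 4.2% were called higher and 3.58% lower. At an unadjusted p under 0.05 limma gave 4, 3 and 7 genes of these lists, and limma voom gave 0 after adjustment. Of 14 tested replacement histone genes *H2afy*, which encodes macroH2A1, was higher (log2 change 1.02, adjusted p = 0.00539) and *H2afj* was lower (−1.04, adjusted p = 0.0028). *H2afj* was thus lower in the mutants of both sexes, at 1202 ± 52.7 in fWT and 757 ± 65.8 in fKO, and at 1255 in mWT and 610.4 in mKO by the means. None of the 7 histone genes with polyadenylated transcripts and none of the 3 testis genes was called in males, where 1 and 0 had an unadjusted p under 0.05 and limma voom called 0.

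Whether the change differed between the sexes was tested as the interaction of sex and genotype over all 12 libraries. In 23 of the 62 histone genes the change in males minus that in females was above 0 at an adjusted p under 0.05 and in 0 below it, against 10.6% and 10.7% of the 22017 genes tested. At an unadjusted p under 0.05 it was above 0 in 28 and below 0 in 3, and limma voom called 22 above and 0 below. By type these were 1 of 6 H1, 3 of 16 H2A, 9 of 17 H2B, 6 of 10 H3 and 4 of 13 H4 genes. The smallest adjusted p belonged to *Hist1h2bm* (difference 1.14, SE 0.184, adjusted p = 0.000626), *Hist1h2bl* (0.93, SE 0.168, adjusted p = 0.00146) and *Hist1h2bc* (0.84, SE 0.152, adjusted p = 0.00148). *Hist1h2bl* was at 2450, 2309 and 2400 in fWT, 1743, 1582 and 1525 in fKO, 1013, 1337 and 961 in mWT and 1248, 1546 and 1439 in mKO. For *Hist1h2bc* the male values were 1656, 2020 and 1605 in mWT and 2029, 2421 and 2436 in mKO, which did not overlap. Without mWT A and C, which leaves 1 library in mWT and takes the spread from the other groups, 6 histone genes differed upwards and 6 downwards, near the 11.1% and 12.1% of all genes in that fit. Without mWT B and mKO A, 48 differed upwards and 2 downwards, against 17.9% and 27.8%. With 1 library left out the count ran from 13 to 45, reaching 45 without mWT B, and 13 without fWT A or fKO C, 14 without mWT C and 15 without mWT A. The median of all 62 differences was 0.40, and 0.03 without mWT A and C.

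Between the controls, histone genes were at a higher level in fWT than in mWT. In the same fit 45 of 62 were higher in fWT and 0 lower, against 9.69% and 11.8% of all 22017 genes tested, with a median log2 difference of 0.62. At an unadjusted p under 0.05, 48 were higher and 1 lower, and limma voom called 43 higher and 1 lower. All 10 tested H3 genes, 13 of 17 H2B, 10 of 16 H2A, 9 of 13 H4 and 3 of 6 H1 genes were among the 45. For each gene the fit over all 12 libraries, here and for the interaction, took a common spread from all groups. The summed histone level had an SD of 36371 in mWT and 4819 in fWT. The effect of this unequal spread on the calls was not tested. For *Hist1h4i* the difference was 1.14 (SE 0.177, adjusted p = 0.000573), for *Hist1h2bl* 1.13 (SE 0.119, adjusted p = 2.6e-05) and for *Hist1h4k* 1.00 (SE 0.173, adjusted p = 0.00132). In 55 of 59 genes mWT A and C were below all fWT libraries. Counted separately, mWT B was below all fWT libraries in 46 of the 59. Neither order was counted over all genes. Against mWT B alone, with the spread taken from the other groups, 9 histone genes were higher in fWT and 2 lower, against 4.98% and 5.15% of all genes in that fit. Of 30 S phase genes 12 were higher in fWT and 1 lower, and *Hist1h4n*, at 10688 to 13087 in fWT and 12124 to 19771 in mWT, was among the 17 histone genes that did not pass. The 2 tables were placed on a common scale for this, since the size factors of all 12 libraries were between 0.988 and 0.999 times those recomputed over the 12 libraries together.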

How the data were processed

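The 12 libraries were made from ribosomal RNA-depleted total RNA with a strand-specific protocol, and the submitters' processing notes name TopHat2 2.1.0 with Bowtie2 2.2.6.0, mm9, DESeq and Cuffdiff. The authors kept uniquely mapped reads and counted them per gene. The gene annotation used for counting is not given in the sources used here. Per the file headers, each of the 2 deposited tables, for females and for males, holds a signal per gene, the mean over a group of counts divided by size factors, beside fold changes and p-values of the authors' own comparison, which were not used.

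Means are written with 15 significant digits, so the whole reads of each library were solved for genes with group means up to 10000. Histone genes above that limit were solved as well. Other genes above it in any group were left out of all fits and of the shares of all genes. This kept 22811 of 22911 genes. Every gene searched had 1 solution, covering 86.2% to 91.6% of the normalized counts of a group. Reads were divided by the deposited size factors, 1 was added, and log2 values were fitted with limma 3.58.1 (trended variance, R 4.3.3) within each sex, and over all 12 libraries for the interaction and the controls. Adjusted p-values are Benjamini-Hochberg over all genes tested, and measure the spread between libraries, which could not be tied to samples. Scripts ran in Python 3.11.15 and were tested on simulated data.

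Named in full were the 2 genes of each type with the highest mean count, the 5 called genes with the largest rise and fall in each sex with a mean of at least 10, genes called in both sexes and the 3 with the smallest adjusted p of the interaction. Genes of the polyadenylated and testis lists, called genes of the other lists and the 2 highest of each list were also named. All members and lists were chosen with earlier results of these data known. Coordinates of genes and stem-loops are on mm9 (GENCODE vM1 gene models), and promoters are from RefSeq on GRCm38.p6. Alternatives were limma voom on the reads, a pseudocount of 0.1, a minimum mean of 10, scaling by total reads, size factors recomputed within the sex and each library left out in turn. Leaving out mWT A and C, or mWT B and mKO A, scaling sums by total reads and summing Hist2 without *Hist2h4* were added after seeing the data.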

Additional observations from a re-analysis of the deposited data

Results flagged for a closer look

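For 11 of the histone genes described library by library, the interaction of sex and genotype passed the test, that is, the log2 change in males differed from that in females. Of these, *Hist1h2bm*, *Hist1h2bl* and *Hist1h2bc* were named at least in part for the interaction itself. Several others were named for their change in females, which is a part of the interaction. The 11 results are thus not independent of how the genes were picked. The difference, males minus females, was 0.93 for *Hist1h1c*, 0.66 for *Hist1h2ah*, 0.72 for *Hist1h2bk*, 0.77 for *Hist1h3e* and 1.00 for *Hist1h4k*. It was 1.16 for *Hist1h4i*, 0.89 for *Hist1h2bp*, 0.63 for *Hist1h2bf*, 1.14 for *Hist1h2bm*, 0.93 for *Hist1h2bl* and 0.84 for *Hist1h2bc*. For 10 of the 11 genes the change was below 0 in females and above 0 in males. *Hist1h4k* instead rose in both sexes, and rose more in males. Only *Hist1h4k* and *Hist1h2bm* also passed the test within males. Without mWT A and C, which leaves 1 library in mWT, all 11 differences stayed above 0, from 0.25 for *Hist1h2ah* to 0.81 for *Hist1h2bm*. In that setting the male change turned below 0 in 7 of the 11 genes, from −0.0075 for *Hist1h1c* to −0.36 for *Hist1h4i*.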

How the results depend on the processing

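The count of histone genes called in females kept within 1.5 times under all alternatives run (36 to 42 of 62), as did the count between the controls under all but 1 (30 to 51). Without mWT A and C that count was 11 (9 higher, 2 lower), with 2040 of 20129 genes called in all against 4739 of 22017. In males the count of 2 held under the other scalings, filter, pseudocount and limma voom, and ran from 1 to 29 with 1 library left out, 29 without mWT B and 7 without mKO A. It was 0 without mWT A and C, where 0 of 19041 genes passed over the whole table and the count is thus void, and 51 without mWT B and mKO A, where 9357 of 21780 genes passed, against 1703 of 21875 with all libraries. For the interaction the count of 23 ran from 13 to 45 with 1 library left out, and was 12 without mWT A and C (4677 of 20129 genes in all) and 50 without mWT B and mKO A (10017 of 21962). Over genes with at least 50% unique sequence only, the summed log2 ratio in females was −0.16 for H2B (−0.29 over all) and −0.20 for H4 (−0.07 over all), and the cause was not tested. In females the log2 ratio of the summed S phase genes was −0.0077 scaled by total reads (0.061 by size factors), and that of the summed Hist2 genes 0.15 without *Hist2h4* (0.26 with it). No paired analysis was possible because the recovered libraries carry no sample numbers.

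Of 558 recomputed values of named genes 491 kept direction and side of the threshold, 32 passed and 11 failed the threshold anew, and 24 turned direction, none of which had passed the test to begin with. Without mWT A and C the log2 changes in males turned to −0.19 (*Hist1h1d*), −0.0075 (*Hist1h1c*), −0.22 (*Hist1h2ah*), −0.26 (*Hist1h2ai*), −0.18 (*Hist1h2bk*), −0.19 (*Hist1h3e*), −0.057 (*Hist2h3b*), −0.17 (*Hist1h2bn*), −0.36 (*Hist1h4i*), −0.095 (*Hist1h2bp*) and −0.19 (*Hist1h2bf*). Without mWT A they turned for *Hist1h2ai* (−0.024), *Hist1h2bn* (−0.015) and *Hist1h4i* (−0.048), and without mWT C for *Hist1h2ai* (−0.036) and *Hist1h2bf* (−0.055). Without mWT B they turned for *Hist2h2bb* (0.18), *Hist1h4n* (0.0086) and *Hist1h2aa* (0.059), without mWT B and mKO A for *Hist2h2bb* (0.020), and without mKO B for *Hist1h2bf* (−0.012). In females the change turned for *Hist1h4n* without fWT B (−0.0057) and when scaled by total reads (−0.0063), and for *Hist1h1d* without fKO C (0.0050). With 1 library left out, these changes ran from −0.10 to 0.0050 for *Hist1h1d* and from −0.0057 to 0.14 for *Hist1h4n* in females. In males they ran from −0.036 to 0.20 (*Hist1h2ai*), −0.33 to 0.18 (*Hist2h2bb*), −0.34 to 0.0086 (*Hist1h4n*), −0.47 to 0.059 (*Hist1h2aa*), −0.015 to 0.17 (*Hist1h2bn*), −0.048 to 0.45 (*Hist1h4i*) and −0.055 to 0.16 (*Hist1h2bf*).

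Only uniquely mapped reads were kept, and in 31 of the 68 genes under 50% of the exonic 50-base stretches are unique on mm9. That share rests on GENCODE vM1 gene models, and the annotation used for counting is not known. Which sequence each count came from is thus not established. *Hist1h2ao*, with 0 unique stretches in these models, still had 3 to 12 reads per library.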

Other observations

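For the interaction, which 10.6% of all genes passed above 0 and 10.7% below, 1 of 22 histone mRNA processing genes was above 0 and 2 below, 2 of 21 supply and chaperone genes were above, 3 of 14 replacement histone genes were above, and 1 of 30 S phase genes was above and 3 below. Between the controls, where 9.69% of all genes were higher in fWT and 11.8% lower, 7 of 22 processing genes, 5 of 21 supply and chaperone genes and 4 of 14 replacement histone genes were higher in fWT, and 1 replacement gene was lower.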
